A study of Mus musculus with 56 samples.

Results

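Genes of splicing factors and of heterogeneous nuclear ribonucleoproteins (hnRNPs) were followed through 5 ways of making a microarray target from the RNA of the same cell lines. The members were taken by gene symbol: the Hnrnp genes, numbered Srsf, Sf3a, Sf3b and Prpf genes, and the Snrp genes of snRNP proteins, without the imprinted Snrpn. They came to 54 of the 15063 named genes of the array, measured by 59 probes: 16 hnRNP genes, 9 genes of SR proteins, 7 of SF3 proteins, 12 of Sm and other snRNP proteins, and 10 Prpf genes. One of the 12 snRNP entries, Snrp1c-ps2, has the symbol of a pseudogene, and signal of near-identical copies cannot be told apart. A gene became a member by its symbol and not by a measured value, but the family was chosen with earlier results of these data known.

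Of the 56 arrays, each hybridized with a Cy3 and a Cy5 target, 28 compared OV, mouse cells derived from the surface epithelium of the ovary, with 3T3 mouse fibroblasts, in 7 comparisons of 4 arrays each. The labels name no allele and no treatment for either line. The unamplified cDNA target was made from 100 μg of RNA. IVTIII, which is linear amplification by T7 RNA polymerase in repeated rounds, and the PCR-based GA, SMART and SM37 were run on 10 ng, and SMART and GA also on 10 pg, about the amount of a single cell. Another 21 arrays compared technical replicas of OV and 3 held OV against itself, while 4 arrays of embryonic neural progenitor replicas were not used here. The labels name no separate cultures, so the p-values given here measure the spread between these arrays, which may be technical. By the study's methods the 4 arrays of a comparison hold 2 replicates of each line and their dye swaps, so n = 4 counts arrays and not 4 separate amplifications. The labels do not say which arrays form a pair. Arrays 1 and 2, and 3 and 4, were also taken as pairs and used as a random block. Called were then 14 members in cDNA (26.9%, against 19.9% of all genes) and 8 in IVTIII (25%, against 21.1%). In IVTIII minus cDNA there were 20 (62.5%, against 45.7%).

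All values are log2 ratios of OV over 3T3, where 1 is a 2-fold higher and -1 a 2-fold lower signal in OV. Taking Cy5 over Cy3 as the deposited direction and turning arrays by their dyes gave the likely sign. The paper names the dyes of its ratio in both orders, so the sign rests on genes known for either line. In unamplified cDNA the ovarian surface epithelium genes Wt1 and Krt8 averaged 3.65 ± 0.50 and 3.44 ± 0.48 (SD, n = 4), and Xist and Cdkn2a 3.21 ± 1.30 and 1.58 ± 0.11. Of 9 markers of ovarian surface epithelium measured there 7 were higher in OV, while Krt18 was lower at -0.75 ± 0.25. Of 8 fibroblast markers 3 were lower in OV, and Col1a1 was higher at 1.47 ± 0.25. In IVTIII, 3 of the epithelial markers had a value on all arrays, and all 3 were nearer 0 than in cDNA: Wt1 at 1.54 ± 0.19, Krt8 at 1.30 ± 0.24 and Msln at 0.04 ± 0.16. Of 3 immune cell markers measured in cDNA, 0 were called, and 0 had an unadjusted p under 0.05 in limma. In the deposited values, unamplified arrays of opposite dye orientation correlated between -0.89 and -0.79 over 10185 genes. The label of the first IVTIII array names the fibroblast line in a field where the title and description name OV in Cy5, and the latter were followed. The description of the second GA array is that of a replica array, while its title and source names give OV and 3T3, which were followed. SMART arrays at 10 ng stood apart from one another: arrays 1 and 4 correlated at -0.06 over 7405 genes after turning.

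Pre-mRNA splicing is carried out by the spliceosome, in which small nuclear RNAs are packed with a ring of Sm proteins and with proteins particular to each snRNP. The U2 snRNP, with its SF3a and SF3b complexes, recognises the branch point, and Prpf proteins act in the tri-snRNP and in the rearrangements that follow. SR proteins bind exonic enhancers and as a rule favour the use of an exon, while hnRNPs coat the nascent transcript and often oppose it. Several genes of SR proteins and hnRNPs hold exons whose inclusion sends their own transcript to decay, and these transcripts are abundant in dividing cells.

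RefSeq promoters of the GRCm38.p6 build, from 250 bases before to 50 after a transcription start, were found for 47 of the 54 members in 60 windows. Motifs were searched on both strands and each was counted on its own. CCGGAAG, which holds the core bound by ETS factors, lay in 31.7% of the members' windows and in 12.9% of the 14650 windows of all genes on the array. CCAAT, bound by NF-Y, lay in 46.7% and 37.7%, GGGCGG, the GC box, in 65% and 51.0%, and TATAAA in 10.0% and 10.6%. The palindromic motif bound by Banp lay in 1.67% and 0.751%. By role, CCGGAAG was in 5 of 6 windows of SF3 genes, 5 of 12 of SR, 4 of 10 of snRNP, 4 of 12 of Prpf and 1 of 20 of hnRNP genes. CCAAT was in 1 of 6, 4 of 12, 3 of 10, 7 of 12 and 13 of 20 in the same order. These counts were not tested, and several windows can belong to 1 gene. A match describes these letters and is not evidence of a bound site.

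Shown are the 100 bases before the start of the hnRNP, SR and SF3 genes called in cDNA for which a window was found, and of Hnrnpdl, Srsf3 and Hnrnph2, the 3 highest members in IVTIII, since the results turn on these genes. Capitals mark the ETS, NF-Y, GC box and TATA motifs above and their reverse complements. The build is GRCm38.p6.
Hnrnpa1, chr15:103240297-103240396, plus strand: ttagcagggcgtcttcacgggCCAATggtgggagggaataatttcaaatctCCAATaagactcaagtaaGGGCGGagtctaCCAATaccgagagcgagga
Hnrnpab, chr11:51606882-51606981, minus strand: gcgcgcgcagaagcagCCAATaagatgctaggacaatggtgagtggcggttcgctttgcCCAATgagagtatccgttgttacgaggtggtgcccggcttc
Hnrnpdl, chr5:100039223-100039322, minus strand: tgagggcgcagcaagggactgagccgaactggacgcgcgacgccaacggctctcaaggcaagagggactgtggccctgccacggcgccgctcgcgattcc
Hnrnph2, chrX:134601079-134601178, plus strand: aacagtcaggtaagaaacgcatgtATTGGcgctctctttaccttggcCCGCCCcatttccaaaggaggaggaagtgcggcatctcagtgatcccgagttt
Srsf3, chr17:29032560-29032659, plus strand: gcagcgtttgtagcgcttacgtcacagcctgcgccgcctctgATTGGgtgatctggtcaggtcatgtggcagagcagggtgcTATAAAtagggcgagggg
Srsf2, chr11:116853095-116853194, minus strand: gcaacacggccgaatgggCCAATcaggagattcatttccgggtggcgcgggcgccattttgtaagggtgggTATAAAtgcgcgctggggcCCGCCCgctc
Sf3b3, chr8:110846804-110846903, minus strand: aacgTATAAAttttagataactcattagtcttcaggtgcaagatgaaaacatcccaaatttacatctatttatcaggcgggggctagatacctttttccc
Sf3a2, chr10:80798635-80798734, plus strand: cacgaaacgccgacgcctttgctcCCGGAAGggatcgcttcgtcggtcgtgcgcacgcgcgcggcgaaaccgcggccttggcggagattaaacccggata
Sf3a3, chr4:124714761-124714860, plus strand: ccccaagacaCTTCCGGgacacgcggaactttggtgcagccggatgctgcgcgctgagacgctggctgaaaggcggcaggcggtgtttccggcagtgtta
Upstream of Hnrnpa1 CCAAT occurs 3 times and upstream of Hnrnpab 2 times in this stretch, Hnrnph2 holds its reverse complement and that of the GC box, and Hnrnpdl holds none of the motifs marked. Both SR genes hold CCAAT or its reverse complement with TATAAA. Sf3a2 and Sf3a3 hold CCGGAAG, on opposite strands, while Sf3b3 holds TATAAA.

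Unamplified cDNA gave the widest view of the members. Of 54, 52 had a value on all 4 arrays and 2, Snrpf and Snrp1c-ps2, on some. A gene was called where the log-odds of a difference (LOD) in limma, at a prior of 0.01, exceeded 0. By this rule 11 of 52 members were called (21.2%, against 16.1% of all genes), 3 higher and 8 lower in OV. All genes were called higher in 8.81% and lower in 7.3% of cases, and members in 5.77% and 15.4%. The members lay slightly below 0: 38 of 52, or 73.1%, had a negative mean, against 50.5% of all genes, and their median was -0.16 against -0.00. In 29 of 52 members all 4 arrays were below 0, against 32% of all genes, and in 8 all were above it, against 30.3%. Cytosolic ribosomal protein genes had like shares, with 48 of 66 below 0 (72.7%) and 15.2% called lower. At an adjusted p under 0.05 the members' share of calls was 48.1% and that of all genes 48.8%, with 36.5% of members and 24.8% of all genes lower. Their SD over arrays had a median of 0.126, against 0.151 for all genes.

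Among Sm and other snRNP proteins, 3 of 10 measured genes were lower in OV and none was higher. Snrpb, which encodes the Sm proteins B and B', had ratios of -1.23, -1.08, -1.18 and -0.89 on the 4 arrays, averaging -1.09 ± 0.15 (SD, n = 4, adjusted p = 0.000253). It was the lowest member in cDNA, with every array below the mean of any other member measured on all 4. Snrpa1, the U2 snRNP protein A', stood at -0.73, -0.66, -0.92 and -0.70, mean -0.75 ± 0.12, with an adjusted p of 0.000554. Snrpe, Sm protein E, averaged -0.55 ± 0.10 over values from -0.65 to -0.41. Their arrays all lay on the same side of 0, whichever dye carried OV. Highest in this group was Snrpg, another Sm protein, at 0.30 ± 0.27, and Snrpd2 was split, with 0.53 and 0.75 on arrays 1 and 2 and -0.56 and -0.69 on arrays 3 and 4. Neither was called.

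SF3 genes divided between directions. Sf3b3, a large subunit of SF3b, gave 1.06, 0.66, 1.04 and 0.81, with a mean of 0.89 ± 0.19 and an adjusted p of 0.000642. Sf3a2 averaged -0.74 ± 0.17 (-0.83, -0.54, -0.92 and -0.66), and Sf3a3 -0.62 ± 0.13 (-0.70, -0.44, -0.63 and -0.71). Both encode subunits of SF3a, whose remaining subunit Sf3a1 stood at -0.17 ± 0.18 and was not called. Sf3b1, the subunit that contacts the branch point, was near 0 at -0.02 ± 0.20.

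Of 16 hnRNP genes, 1 was higher and 2 were lower. Hnrnpul2, an hnRNP U-like protein, stood at 0.97, 0.60, 1.33 and 0.91, with a mean of 0.95 ± 0.30 (adjusted p = 0.00140), the highest of all members. Hnrnpa1, an abundant repressor of exons that also shuttles mRNA to the cytoplasm, gave -0.59, -0.53, -0.66 and -0.56, averaging -0.59 ± 0.06 (adjusted p = 0.000693). Hnrnpab, an hnRNP of the A/B type, averaged -0.46 ± 0.10. The other hnRNP genes were not called and lay between -0.40 for Hnrnph1 and 0.16 for Hnrnph2.

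Among 9 SR genes Srsf2, which encodes the SR protein also known as SC35, was called lower, with -0.59, -0.68, -0.62 and -0.55 and a mean of -0.61 ± 0.06 (adjusted p = 0.000629). Srsf5 was lowest of those not called at -0.50 ± 0.15, and Srsf9 highest at 0.24 ± 0.08. Among 10 Prpf genes Prpf6, a tri-snRNP protein, was called higher at 0.54 ± 0.16, from arrays of 0.59, 0.32, 0.70 and 0.56. Prpf4 and Prpf19 lay just outside the threshold at -0.45 ± 0.11 and 0.43 ± 0.10. Prpf8, the largest protein at the catalytic center, had -0.72, -0.71 and -0.69 on arrays 1, 3 and 4 but 0.39 on array 2, and was not called.

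The count in cDNA leaned on single arrays, and so did that of all genes, at 1640 of 10185 with all 4. Without array 1 it was 5 of 52 members, against 790 of 10250 genes. Without array 4 it was 6 of 52, against 941 of 10450, and without array 3 it was 7 of 52, against 1050 of 10328. Without array 2 it was 12 of 53, against 1739 of 11612. Snrpb, Snrpa1, Sf3b3, Srsf2 and Hnrnpa1 were called without any 1 of the arrays. Hnrnpab was not called without array 1, 2, 3 or 4 nor with a dye term, and Snrpe, Sf3a3 and Prpf6 were not without array 1, 3 or 4. Hnrnpul2 was not called without array 1 or 4, and Sf3a2 without array 1.

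**Figure D1:**
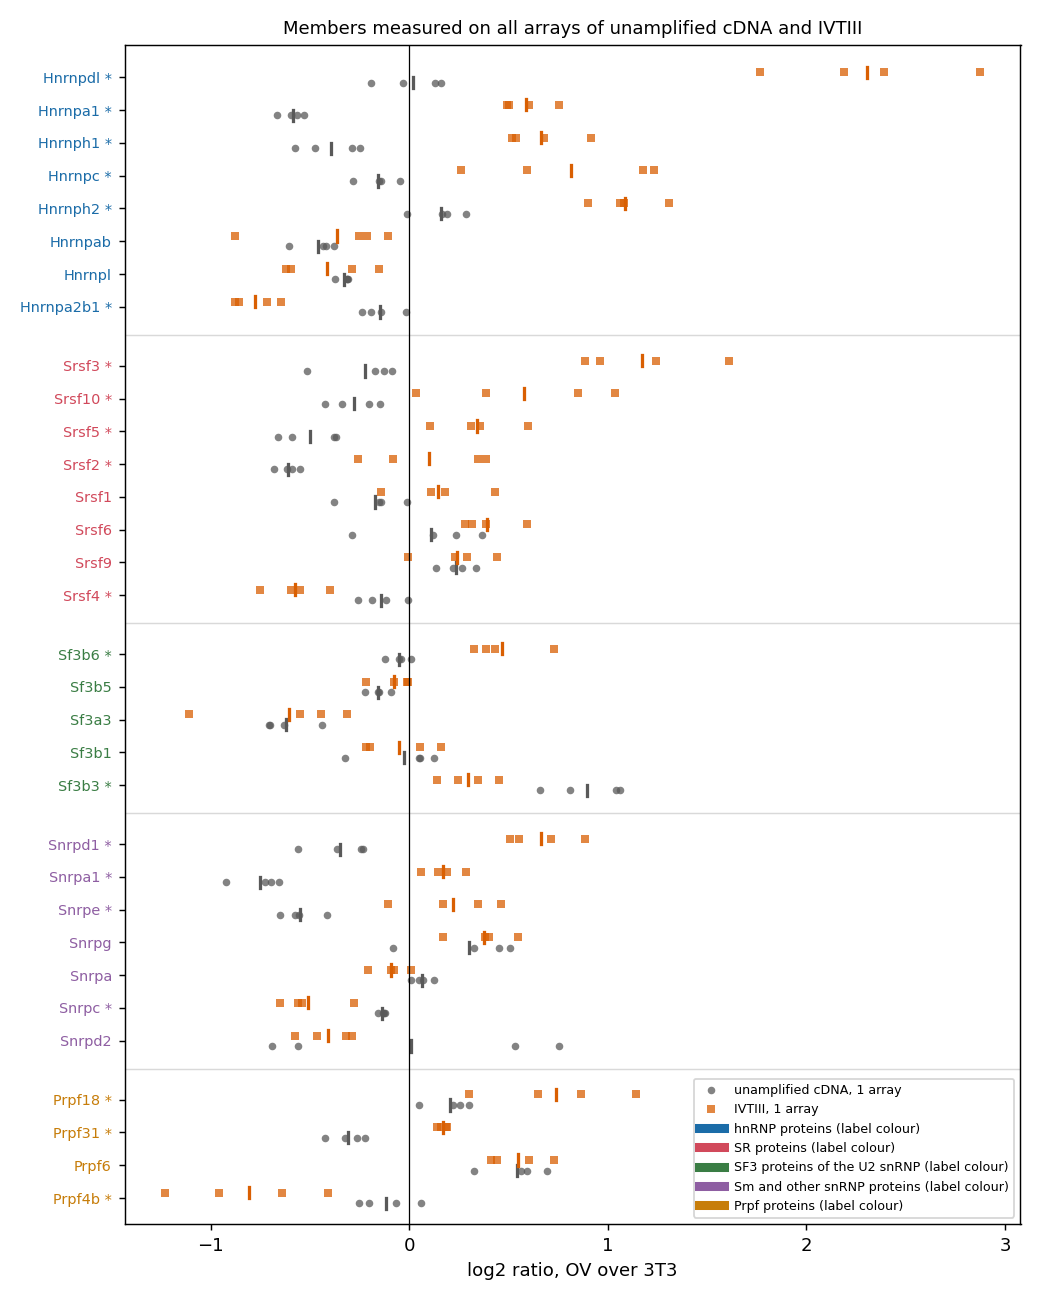
Log2 ratio of OV over 3T3 (x axis) of the 32 members with a value on all arrays of unamplified cDNA (grey circles) and IVTIII (orange squares), 1 symbol per array, with a tick at each mean of 4; label colours give the role and an asterisk marks an adjusted p under 0.05 for IVTIII minus cDNA. Hnrnpdl lies near 0 in cDNA and between 1.77 and 2.87 in IVTIII, and 15 genes are marked higher and 5 lower.

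IVTIII measured fewer of the members. On all 4 arrays 32 had a value, 9 had one on some arrays and 13 on none, Prpf8 among the last. Of the 11 members called in cDNA, Hnrnpul2 had no value, while Snrpb had 1 array and Sf3a2 had 2. By the LOD, 8 of 32 members were called (25%, against 22% of all genes), 6 higher and 2 lower in OV. Higher members made up 18.8%, against 11.6% of all genes, and lower members 6.25%, against 10.4%. The members' median was 0.23, against 0.01 for all genes, and 21 of 32 means were above 0.

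The hnRNP genes held 5 of the 8 calls. Hnrnpdl, a relative of hnRNP D, had 1.77, 2.39, 2.19 and 2.87, with a mean of 2.30 ± 0.46 (adjusted p = 5.97e-05), the highest of all members. Hnrnph2, an hnRNP that binds runs of G, averaged 1.09 ± 0.17 over 0.90 to 1.31, and Hnrnph1, its close paralog, 0.66 ± 0.18 over 0.52 to 0.91. Hnrnpa1 was called higher, with 0.50, 0.61, 0.49 and 0.75 and a mean of 0.59 ± 0.12 (adjusted p = 0.00107). Hnrnpa2b1, which binds and transports RNA along with Hnrnpa1, was lower at -0.65, -0.88, -0.86 and -0.71, averaging -0.77 ± 0.11.

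Srsf3, the smallest SR protein and a link between splicing and mRNA export, stood at 0.96, 0.88, 1.24 and 1.61, with a mean of 1.17 ± 0.33 (adjusted p = 0.000318). Srsf4 was lower at -0.57 ± 0.14, and Sm protein D1, encoded by Snrpd1, higher at 0.66 ± 0.17 over 0.51 to 0.89. The arrays of each of these genes lay on the same side of 0. Lowest of the members in IVTIII was Prpf4b, a kinase of the spliceosome, at -0.81 ± 0.36, which missed the threshold. None of 5 SF3 and none of 4 Prpf genes was called by limma, and 3 of each had an unadjusted p, and also an adjusted p, under 0.05. Without array 2 or array 3 the count of called members was 4 of 32, against 557 of 4102 and 681 of 4112 genes. Without array 4 it was 5 of 34, against 725 of 4618 genes. The calls of Hnrnpa1, Hnrnph1 and Srsf4 needed all 4 arrays, and that of Snrpd1 needed arrays 2, 3 and 4. Hnrnpdl, Hnrnph2, Srsf3 and Hnrnpa2b1 were called in each setting tried, including without any 1 array.

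The question whether IVTIII gave the same ratios as cDNA was tested directly, in limma on 4 arrays of IVTIII and 4 of cDNA. Of 32 members measured on all 8 arrays, 20 differed at an adjusted p under 0.05 (62.5%, against 48.1% of all 3714 genes). OV over 3T3 was higher in IVTIII for 15 members, or 46.9%, against 25% of all genes, and lower for 5, or 15.6%, against 23.2%. The median difference was 0.30 for the members and 0.01 for all genes. In 19 of 32 members the arrays of both targets did not overlap, against 44.7% of all genes. For 12 of the 20 the mean ratio had the opposite sign in each target. How often this holds among all genes was not counted. The count moved with the model and the threshold. With all 28 arrays in 1 fit, 12 members were called (37.5%, against 28.8% of all genes), 11 higher (34.4%, against 15.0%) and 1 lower. With a LOD above 0 there were 10 (31.2%, against 18.9%), 9 higher (28.1%, against 10.1%) and 1 lower, the lower gene being Hnrnpa2b1 in both. Other gene families also leaned higher in IVTIII than in cDNA. Of 22 proteasome subunits 13 were called higher (59.1%) and 17 had a difference above 0, with a median of 0.36, and of 57 cytosolic ribosomal proteins 18 were higher (31.6%) and 10 lower (17.5%), with a median of 0.13.

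hnRNP genes showed the widest differences, with 5 of 8 higher, 1 lower and a median of 0.95. Hnrnpdl rose from 0.02 ± 0.16 in cDNA to 2.30 ± 0.46, a difference of 2.29 ± 0.20 (SE, adjusted p = 1.88e-05). Hnrnpa1 changed from -0.59 to 0.59, a difference of 1.17 ± 0.10 (adjusted p = 1.59e-05), and was thus called lower in OV in cDNA and higher in IVTIII, although the latter call was lost without any 1 of the IVTIII arrays. The difference passed in all 17 settings tried. Its value in IVTIII came from 1 of its 2 probes, the other having no value there. On that probe alone the means were -0.46 ± 0.29 in cDNA and 0.59 ± 0.12 in IVTIII. Hnrnph1 differed by 1.06 ± 0.13, Hnrnpc, which packages nascent transcripts, by 0.97 ± 0.20, and Hnrnph2 by 0.93 ± 0.12. No array of IVTIII overlapped one of cDNA in these 5. Hnrnpa2b1 was lower in IVTIII, with a difference of -0.63 ± 0.10. Hnrnpl and Hnrnpab differed by -0.09 ± 0.12 and 0.10 ± 0.16 and were not called.

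Both probes of Hnrnpab gave -0.46 ± 0.13 and -0.45 ± 0.21 in cDNA, but in IVTIII one averaged -0.76 ± 0.29 on 4 arrays and the other 0.34 ± 0.33 on 3. The value of this gene in IVTIII is therefore a mean over probes that disagree in sign. The 3 probes of Srsf1 also disagreed there, at 0.73 ± 0.43 on 2 arrays, 0.31 ± 0.85 and -0.37 ± 0.13. For Srsf2 the probes gave 0.25 ± 0.31 and -0.05 ± 0.37 there. Where the probes lie on their transcripts was not analysed here.

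Of 8 SR genes 4 were higher and 1 was lower. Srsf3 differed by 1.40 ± 0.17 (adjusted p = 0.000108), Srsf10, an SR-like protein that represses splicing when dephosphorylated, by 0.85 ± 0.20, Srsf5 by 0.84 ± 0.13 and Srsf2 by 0.71 ± 0.15. Each of them had a negative mean in cDNA, from -0.61 for Srsf2 to -0.22 for Srsf3, and a positive one in IVTIII. Srsf2 lost its call as lower in OV: its IVTIII arrays were at -0.26, -0.08, 0.35 and 0.38. Srsf4 was lower in IVTIII, at -0.14 ± 0.11 in cDNA and -0.57 ± 0.14 in IVTIII. Srsf1, Srsf6 and Srsf9 did not pass, at 0.32 ± 0.14, 0.28 ± 0.15 and 0.00 ± 0.12.

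Among 7 snRNP genes Snrpd1 differed by 1.01 ± 0.12, Snrpa1 by 0.92 ± 0.10 and Snrpe by 0.77 ± 0.13, and the mean of each was below 0 in cDNA and above it in IVTIII. Snrpa1, among the lowest members in cDNA, had 0.19, 0.29, 0.06 and 0.15 in IVTIII. Snrpc of the U1 snRNP was lower, with a difference of -0.37 ± 0.11. The 5 SF3 genes had a median difference of 0.02 and went both ways: Sf3b6 was higher by 0.52 ± 0.11 and Sf3b3 lower, at 0.89 ± 0.19 in cDNA and 0.30 ± 0.13 in IVTIII. Sf3a3 was at -0.62 ± 0.13 and -0.60 ± 0.35 and differed by 0.02 ± 0.16. Of 4 Prpf genes Prpf18, a second-step factor, and Prpf31, a tri-snRNP protein, were higher by 0.53 ± 0.16 and 0.48 ± 0.09, and Prpf4b was lower, with a mean of -0.12 in cDNA and -0.81 in IVTIII. Prpf18 was not called without IVTIII array 3 or cDNA array 2, at an adjusted p of up to 0.0621. Prpf6 was at 0.54 ± 0.16 in cDNA and 0.55 ± 0.15 in IVTIII, a difference of 0.00 ± 0.12.

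**Figure D2:**
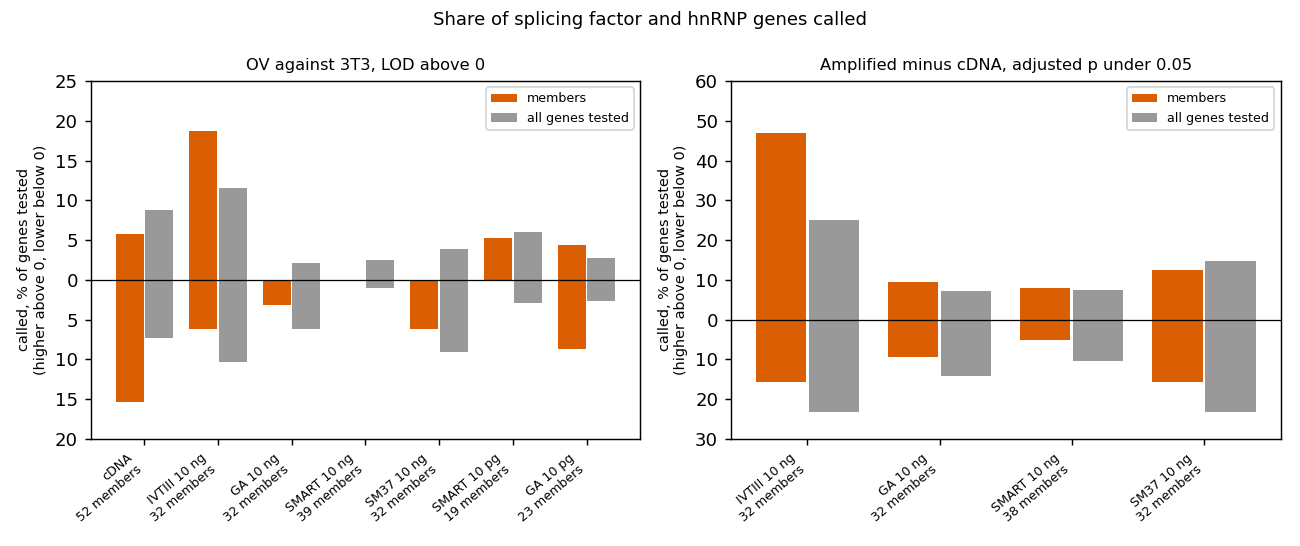
Percentage of genes called higher (above 0) and lower (below 0) among the members (orange) and among all genes tested (grey). The left panel shows OV over 3T3 in the 7 comparisons, with the number of members tested under each name, and the right panel each amplified target at 10 ng minus unamplified cDNA. In IVTIII minus cDNA 46.9% of members are higher, against 25% of all genes.

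The other targets were set against the same 4 cDNA arrays, so these tests share their controls. GA minus cDNA called 6 of 32 members (18.8%, against 21.4% of all genes), 3 higher (9.38%, against 7.1%) and 3 lower (9.38%, against 14.3%), with a median of 0.02. SMART minus cDNA called 5 of 38 (13.2%, against 18%), 3 higher (7.89%, against 7.55%) and 2 lower (5.26%, against 10.5%), with a median of 0.10. SM37 minus cDNA called 9 of 32 (28.1%, against 37.9%), 4 higher (12.5%, against 14.6%) and 5 lower (15.6%, against 23.3%), with a median of -0.16. When arrays were scaled to a common spread the split became 5 and 3 for GA, 2 and 0 for SMART, and 6 and 6 for SM37. None of the shares given above, in either direction together, exceeded that of all genes. At a LOD above 0, however, SM37 minus cDNA called 6 of 32 members (18.8%, against 13.0% of all genes). Without GA array 2 the GA count was 10 of 34 members, against 1207 of 5616 genes. It was 3 of 32 without cDNA array 1, against 532 of 5251. Without SMART array 4 the SMART count was 9 of 39, against 1494 of 7678 genes. The members' share was thus above that of all genes in some such fits, as without GA array 2 or SMART array 4. The SMART count was 3 without SMART array 3, and 2 without SMART array 2 or without cDNA array 1, 3 or 4. All genes called in these were 663 to 863, against 1193 with every array. The GA calls of Hnrnpab and Srsf6 were each lost in 13 of 17 settings, and the SM37 calls of Hnrnpk and Sf3a1 in 9 of 17, including assumed dye-swap pairs as a block, which left 7 members called in SM37.

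A few genes departed from cDNA in several targets. Snrpb, at -1.09 in cDNA, was at -0.06 ± 0.23 in GA, -0.10 ± 0.27 in SMART and 0.01 ± 0.30 in SM37, differences of 1.03 ± 0.14, 0.99 ± 0.14 and 1.11 ± 0.15. Sf3b3, at 0.89 in cDNA, was at -0.19 ± 0.58, 0.32 ± 0.31 and -0.60 ± 0.52, differences of -1.08 ± 0.25, -0.58 ± 0.16 and -1.49 ± 0.22. All 6 had an adjusted p under 0.05. The call of Sf3b3 was lost in GA without cDNA array 1, at an adjusted p of 0.0534, and in SMART without SMART array 2, without cDNA array 1, 3 or 4, when arrays were scaled and with all 28 arrays in 1 fit. Both genes were thus nearer 0 than in cDNA in each PCR-amplified target, Sf3b3 with the opposite sign in GA and SM37. Both lay near an end of the members' range in cDNA, and their differences share the same cDNA arrays. Hnrnpu, a scaffold protein of chromatin and RNA, stood at -0.27 in cDNA, 0.70 ± 0.47 in GA and 0.15 ± 0.04 in SMART, and Srsf10 at -0.28 in cDNA and 1.24 ± 0.91 in GA. In SM37 Hnrnpa1 was higher than in cDNA by 0.78 ± 0.10, and Prpf31, Prpf6 and Srsf6 were lower, with differences of -0.82, -0.78 and -0.91.

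The 6 members called higher in OV in IVTIII were followed into the PCR-based targets, in the order GA, SMART and SM37. Hnrnpdl had 2.30 in IVTIII, 0.34 ± 0.41 in GA, -0.21 ± 0.08 in SMART and no complete set in SM37. Hnrnph2 had 1.09, -0.13 ± 0.42, 0.03 ± 0.44 and -0.26 ± 0.69, and Hnrnph1 0.66, -0.16 ± 0.26, -0.29 ± 0.13 and 0.00 ± 0.32. For Snrpd1 the means were 0.66, -0.53 ± 0.24, -0.09 ± 0.24 and -0.69 ± 0.30. Srsf3 had 1.17 in IVTIII, 0.03 ± 0.32 in SMART and no complete set in GA or SM37, and Hnrnpa1 had 0.59, -0.33 ± 0.37, -0.22 ± 0.28 and 0.19 ± 0.12. Of 18 members measured on all arrays of cDNA, IVTIII, GA, SMART and SM37, IVTIII had the highest mean in 11 (61.1%) and the lowest in 3 (16.7%). Among 2049 genes measured likewise it was highest in 33.4% and lowest in 27.6%. These 11 were Hnrnpa1, Hnrnpc, Hnrnph1, Hnrnph2, Prpf18, Snrpd1, Snrpe, Snrpg, Srsf1, Srsf2 and Srsf5.

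Within targets, OV over 3T3 called few members after PCR. In GA, 1 of 32 was called (3.12%, against 8.23% of all genes, 2.09% higher and 6.14% lower). This was Hnrnpab, lower at -0.96, -1.12, -0.58 and -0.91, mean -0.89 ± 0.23. Its probe with a value on all 4 arrays averaged -1.02 ± 0.10, and its other probe gave -0.07 on 1 array. In SM37, 2 of 32 were called (6.25%, against 13%, 3.91% higher and 9.1% lower), both lower: Prpf31 at -1.06, -0.78, -1.45 and -1.22, mean -1.13 ± 0.28, and Srsf6 at -0.94, -0.83, -0.81 and -0.64, mean -0.81 ± 0.12. The call of Hnrnpab in GA was lost without array 1 or 2, while both calls in SM37 held in each setting. In SMART 0 of 39 were called by limma (against 3.54% of all genes, 2.53% higher and 1.01% lower), 11 had an unadjusted p and 0 an adjusted p under 0.05. Medians of members were -0.19 in GA, -0.10 in SMART and -0.25 in SM37, and the share of members with a negative mean was 75%, 71.8% and 78.1%, against 73.1% in cDNA and 34.4% in IVTIII. In all genes that share ran from 48.0% to 53.3% in these 5 targets.

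In GA the arrays fell into 2 sets. Over 32 members, arrays 1 and 2 correlated at 0.71 and arrays 3 and 4 at 0.94, but arrays of different sets between -0.02 and 0.20. Over all 5458 genes any pair of arrays correlated at 0.49 or more. These are correlations across genes, which are not independent replicates. Snrpe was at -1.26 and -1.42 on the first 2 arrays and 0.21 and 0.48 on the others, and Prpf40b at -0.61, -0.63, 1.43 and 2.46. In cDNA and IVTIII the lowest correlation of any 2 arrays over the members was 0.63 and 0.85, and in SMART at 10 ng it was -0.16. SM37 was also split, with 0.78 for arrays 1 and 2, 0.85 for arrays 3 and 4, and 0.31 to 0.50 between these sets. IVTIII had a smaller split of the same kind, with 0.93 and 0.96 within the sets and 0.85 to 0.88 between them. GA at 10 pg had 0.89 and 0.93 within and 0.67 to 0.76 between. In cDNA the sets had 0.83 each, and 0.63 to 0.84 between them.

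**Figure D3:**
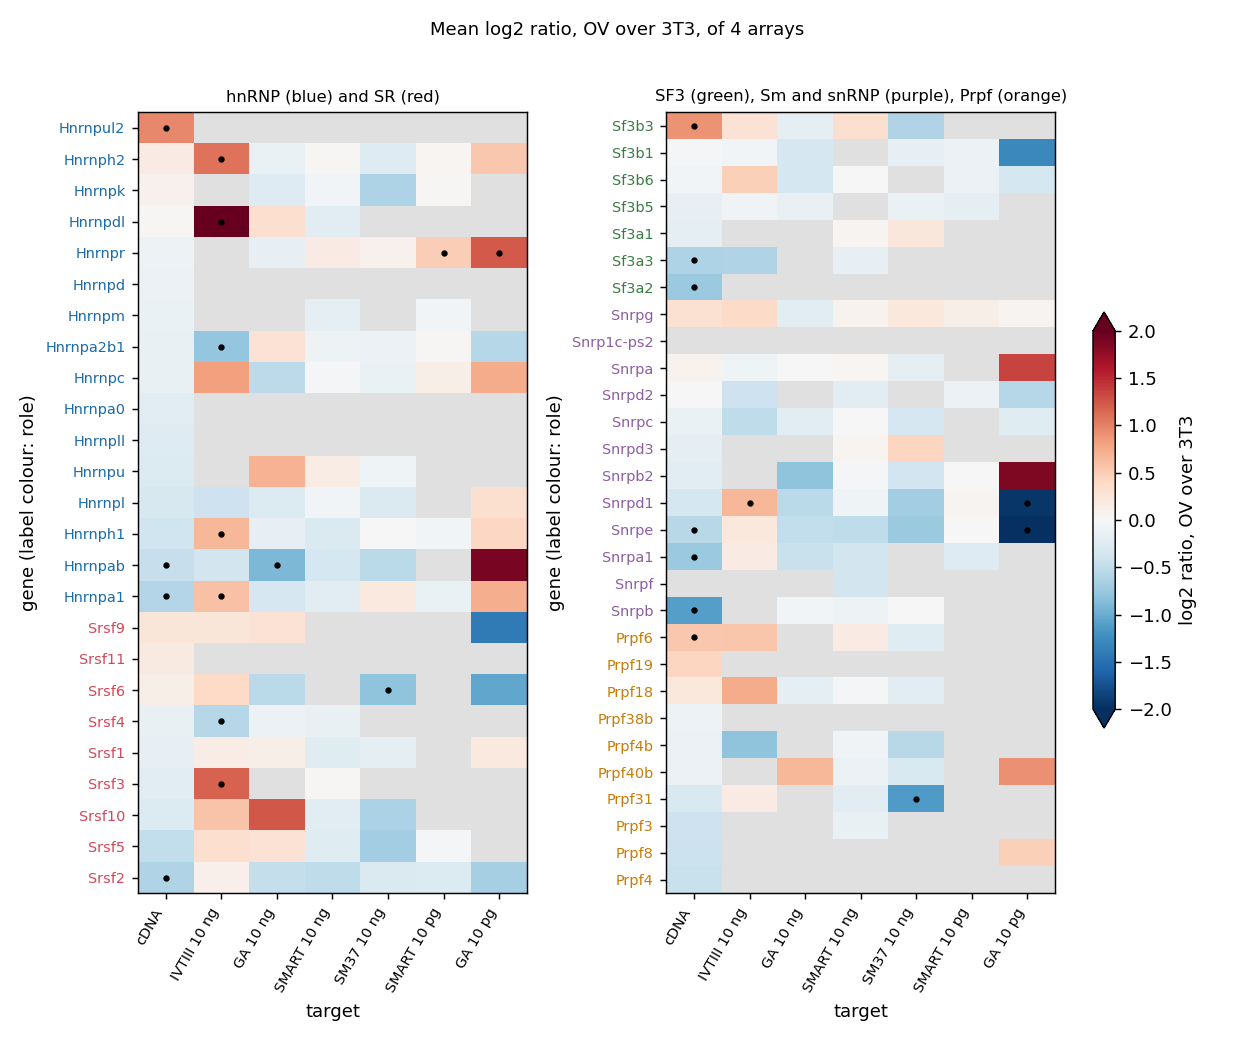
Mean log2 ratio of OV over 3T3 over 4 arrays (colour, from blue for lower to red for higher in OV, saturating at 2) for the 54 members in the 7 comparisons; grey marks genes without a value on all 4 arrays and a dot marks a LOD above 0. Of the 16 hnRNP genes 8 have a colour in the IVTIII column, 5 of them above 0, and of the 8 coloured SR genes 7 are above 0, while GA, SMART and SM37 hold few dots.

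At 10 pg the members thinned out. SMART had a value on all arrays for 19 members and for none of the Prpf genes, and 1 of 19 was called (5.26%, against 8.97% of all genes, 6.04% higher and 2.93% lower). This was Hnrnpr, an hnRNP of neurons and other cells that is close to Syncrip, at 0.45, 0.60, 0.26 and 0.65, mean 0.49 ± 0.18, called higher but not without array 1, 2 or 4. Array 2 had a members' median of -0.16, while the others lay between -0.01 and 0.00. GA at 10 pg had 23 members, of which 3 were called (13.0%, against 5.45%), 1 higher (4.35%, against 2.73%) and 2 lower (8.70%, against 2.71%). Hnrnpr averaged 1.22 ± 0.25, Snrpe -2.07 ± 0.50 over -2.67 to -1.45, and Snrpd1 -1.94 ± 0.70 over -2.92 to -1.42. Hnrnpr had been near 0 in cDNA, at -0.10 ± 0.22.

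Snrpd1 was called higher in OV in IVTIII and lower in GA at 10 pg, and was not called in cDNA at -0.35 ± 0.15. Calls in GA at 10 pg were unsteady: with a dye term, or with assumed dye-swap pairs as a block, 1 of 3 remained, Snrpe. All genes called fell from 241 to 149 and 114. The members' count was 1 without array 1 or 4, 2 without array 2 and 0 without array 3. In the same order, all genes called were 227 of 9978, 81 of 4491, 231 of 4443 and 89 of 4454. Hnrnpr and Snrpd1 were lost without any 1 array, and Snrpe without array 3. With arrays scaled to a common spread all 3 calls were of genes lower in OV. The members' medians were -0.03 and -0.14 on arrays 1 and 2 and 0.52 and 0.52 on arrays 3 and 4.

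Technical replicas of OV give the background of these ratios, since both channels then hold the same RNA. Spread was measured as 2 SD of the log2 ratio over genes, for the mean of both arrays (1 array for cDNA). It was 0.147 for the 54 members in cDNA and 0.245 for all genes, and at 10 ng 0.281 for 43 members in SMART, 0.529 for 35 in IVTIII, 0.558 for 39 in GA and 0.682 for 16 in SM37. All genes had 0.271, 0.584, 0.504 and 0.710. As a scaled median absolute deviation, however, members had 0.479 and all genes 0.322 in IVTIII, and 0.655 and 0.602 in SM37. In OV labelled with both dyes and set against itself, members had 0.176 in cDNA, 0.228 in IVTIII and 0.218 in GA. Of the members with a value on both arrays, 0 had a mean difference of over 2-fold between replicas at 10 ng. In cDNA 0 did on its 1 array. How many of all genes passed 2-fold was not counted. A log2 difference of over 0.585 in size was passed by 2.86% of members in IVTIII (5.80% of all genes). It was passed by 5.13% in GA (3.75%), 12.5% in SM37 (10.3%) and 0% in SMART (0.091%). Single GA arrays at 10 ng went past 2-fold for Prpf40b at -1.85, Snrpe at -1.24, Snrpb2 at 1.07 and Hnrnpk at 1.58, the last on its only array.

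Single genes matter here. In IVTIII replicas Hnrnpc had the largest difference of any member, at -0.90 and -0.85 on both arrays, which is near the size of its IVTIII minus cDNA difference of 0.97. Prpf4b was at -0.51 and -0.64. Hnrnpdl stood at 0.13 and -0.51, Hnrnpa1 at 0.11 and 0.31, and Hnrnph2 at 0.16 and 0.10, each smaller in size than the gene's difference from cDNA. Srsf3 was at -0.25 and -0.43. Both channels of these arrays held OV, from parallel amplifications.

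Below 1 ng the spread was wider at lower input. For SMART the members had 0.138 at 1 ng, 0.30 at 100 pg and 0.780 at 10 pg, and for GA 0.557 at 1 ng, on 16 members, 0.650 at 100 pg and 1.66 at 10 pg. All genes had 0.143, 0.333 and 0.654 in SMART and 0.458, 0.713 and 1.26 in GA. In GA at 10 pg, 8 of 51 members differed by over 2-fold between replicas. These ran from -2.01 for Hnrnpr to 2.48 for Hnrnpk, an hnRNP that binds C-rich RNA. How many of all genes passed 2-fold was not counted. At a log2 difference of over 0.585 in size, 31.4% of members passed there, against 24.5% of all genes. Hnrnpr, called higher in OV in that target at 1.22, thus differed by more between replicas of OV alone. Snrpe and Snrpd1, also called there, differed between replicas by 0.02 and 0.00.

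**Figure D4:**
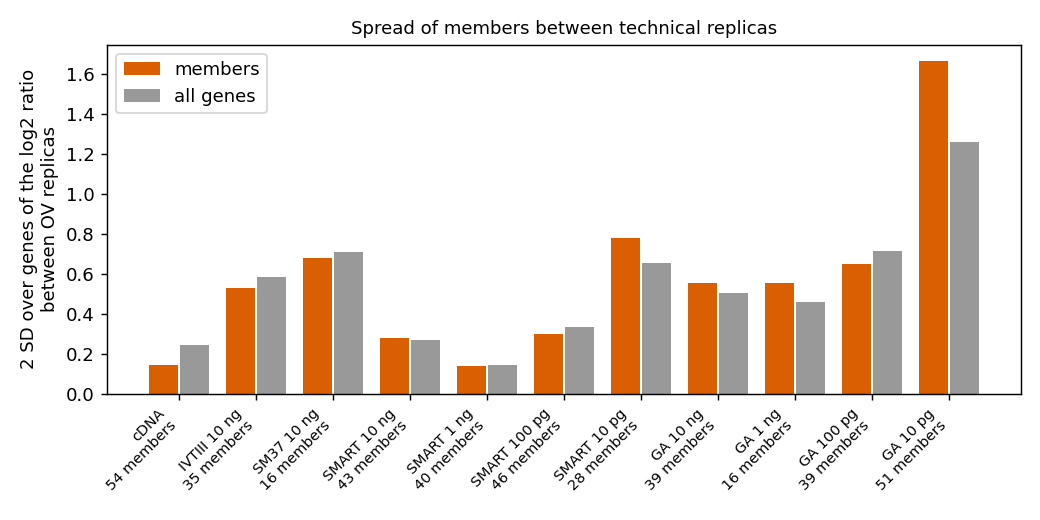
Spread between technical replicas of OV, as 2 SD over genes of the log2 ratio (y axis, starting at 0), for the members (orange) and all genes (grey), with the number of members under each target. The members' bars lie between 0.138 in SMART at 1 ng and 1.66 in GA at 10 pg, with unamplified cDNA at 0.147.

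Genes that work with the members were read from lists. Of 53 measured genes of other spliceosome parts, 3 were called (5.66%, against 16.1% of all genes), of which 1 was higher in OV in cDNA, the helicase Dhx38 at 0.57 ± 0.16, and 2 were lower, Snrnp25 of the minor spliceosome at -0.78 ± 0.19 and Snrnp70 of the U1 snRNP at -0.43 ± 0.07. In IVTIII minus cDNA 10 of 26 were higher (38.5%, against 25%) and 4 lower (15.4%, against 23.2%), with a median of 0.13. The helicase Dhx15, which takes spliceosomes apart, differed by 0.98 ± 0.15 and Bcas2 of the Prp19 complex by 0.83 ± 0.15, while Smu1 and the Sm-like genes Lsm6 and Lsm2 were lower, with differences of -1.47, -1.46 and -0.96.

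Of 43 other splicing regulators and RNA-binding proteins, 2 were higher and 3 lower in cDNA, together 11.6%, against 16.1% of all genes. Mbnl1 and Mbnl2, muscleblind proteins that regulate tissue-specific exons, went opposite ways in both targets: Mbnl1 was at -1.68 ± 0.25 in cDNA and -1.12 ± 0.21 in IVTIII, and Mbnl2 at 1.38 ± 0.18 and 1.76 ± 0.40. Ybx1, an mRNA-packaging protein, was lower in cDNA at -1.08 ± 0.17. In IVTIII minus cDNA 7 of 24 were higher and 4 lower (29.2% and 16.7%, against 25% and 23.2% of all genes), led by the cold-inducible Rbm3 at 1.24 ± 0.16. Of kinases of SR proteins 0 of 7 were called in cDNA and 0 of 5 in IVTIII, against 16.1% and 22% of all genes. In limma 1 and 2 of them had an unadjusted p, and also an adjusted p, under 0.05. Of the SMN complex, which loads Sm proteins onto snRNAs, 0 of 4 and 0 of 3 were called. In limma 2 and 2 of them had an unadjusted p, and 1 and 1 an adjusted p, under 0.05. Of 9 genes of the exon junction and mRNA export, 3 were called in cDNA (33.3%, against 16.1% of all genes). Higher was 1, the export receptor Nxf1 at 0.53 ± 0.07, and 2 were lower, its partner Nxt1 at -0.57 ± 0.05 and the adaptor Alyref at -0.53 ± 0.09. Alyref was at -1.61 ± 0.03 in IVTIII, a difference of -1.08 ± 0.10.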

How the data were processed

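The authors deposited log2 ratios of both dyes for each array, which the study's methods derive from background-subtracted spot intensities, with lowess normalization by print tip in limma. Intensities were not used here, so signal over background is unknown, and why some spots lack a value is not given in the sources used here. In place of depth, probes with a value per array ranged from 14198 to 18274 in unamplified cDNA, 5667 to 7728 in IVTIII, 9442 to 16672 in GA, 11030 to 18588 in SMART, 10009 to 12812 in SM37, 2303 to 5137 in SMART at 10 pg and 5965 to 19243 in GA at 10 pg, for OV against 3T3.

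Of 21997 probes, 231 controls were left out. Probes with 1 gene symbol (16632) were averaged to 15063 genes, and those with several (139) or none (4995) were not named. Ratios were turned by the dyes in the labels. Amounts follow the paper and the titles where units in the labels differ, and the second GA array follows its title and source names. Members and gene lists were chosen with earlier results of these data known.

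limma 3.58.1 in R 4.3.3 was fitted over all genes measured on every array of a comparison. OV over 3T3 was called at a LOD above 0 with a prior of 0.01, and amplified minus cDNA at a Benjamini-Hochberg adjusted p under 0.05. On simulated data IVTIII minus cDNA recovered 52.58% of log2 changes of 0.5 and 88.35% of changes of 1, with 10 false calls among 3714 genes. Simulated arrays were drawn independently, with 97 genes changed by 0.5 and 103 by 1. The real arrays hold dye swaps of 2 replicates, and 48.1% of all genes were called, so these rates need not apply to them. Genes were named by role: up to 3 highest and lowest in cDNA, up to 2 highest and lowest in IVTIII minus cDNA, those at the ends of each comparison, those with opposite calls or probes of opposite sign, and called genes of the lists. Others named, such as Prpf8, Snrpd2, Prpf40b and Hnrnpk, were chosen after their values were seen. Alternatives covered the filter, probes one by one, centring, scaling, a dye term, dye-swap pairs assumed from hybridization numbers, both thresholds, a replicate block, all arrays in 1 fit and leaving out each array. Figures were drawn with matplotlib 3.10.9.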

Additional observations from a re-analysis of the deposited data

Results flagged for a closer look

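Hnrnpa1 differed between targets by 1.17 in IVTIII minus cDNA, being called lower in OV in cDNA and higher in IVTIII; the difference passed limma's test, and 4 of 4 arrays lay below 0 in cDNA and above 0 in IVTIII.

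Single arrays stood far from the other 3 of their group in 5 of 91 groups of 4 arrays that were examined by Dixon's test, where chance gives about 1 in 20. Array 4 of IVTIII had a members' median of 0.39, against 0.17 to 0.20 on the others. Array 2 of SMART at 10 pg had -0.16. In cDNA, Prpf8 was at 0.39 on array 2, Sf3b1 at -0.32 on array 3 and Hnrnpl at -0.37 on array 4.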

How the results depend on the processing

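No value called for a gene turned its sign under any alternative tried. Over single genes 4544 alternatives kept the side of the threshold, 152 lost a call and 101 gained one. At an adjusted p under 0.05 in place of the LOD, members called were 25 in cDNA (48.1%, against 48.8% of all genes), 22 in IVTIII (68.8%, 55.9%), 8 in GA (25%, 27.9%), 12 in SM37 (37.5%, 43.0%), 4 in SMART at 10 pg (21.1%, 33.3%) and 9 in GA at 10 pg (39.1%, 17.1%). At a LOD above 0 in place of the adjusted p, members differing from cDNA were 10 in IVTIII (31.2%, against 18.9% of all genes) and 6 in SM37 (18.8%, 13.0%). There was 1 each in GA (3.12%, 6.23%) and SMART (2.63%, 6.52%). With all 28 arrays in 1 fit they were 12 in IVTIII (37.5%, 28.8%), 4 in GA (12.5%, 14.2%), 1 in SMART (2.63%, 7.80%) and 7 in SM37 (21.9%, 22.5%). Scaled to a common spread, SM37 called 4 members and SMART minus cDNA 2. A dye term or assumed dye-swap pairs left 1 call each in GA at 10 pg. Leaving out each array, all genes called ranged from 790 to 1739 in cDNA, 557 to 758 in IVTIII and 81 to 231 in GA at 10 pg. Members called then ranged from 5 to 12 in cDNA, 4 to 6 in IVTIII, and 0 to 1 in GA, SMART and SMART at 10 pg. In SM37 they ranged from 2 to 3 and in GA at 10 pg from 0 to 2. Their medians ranged from -0.17 to -0.14, 0.17 to 0.24, -0.22 to -0.12 (GA), -0.15 to -0.06 (SMART), -0.06 to -0.02 (SMART at 10 pg), -0.38 to -0.18 (SM37) and -0.05 to 0.42 (GA at 10 pg). Against cDNA, counts ranged from 19 to 21 and medians from 0.20 to 0.37 in IVTIII, 3 to 10 and -0.082 to 0.076 in GA, 2 to 9 and 0.00 to 0.17 in SMART, and 7 to 11 and -0.20 to -0.04 in SM37. With the hybridization number as a replicate block, 20 members differed in IVTIII, 5 in GA, 3 in SMART and 10 in SM37. Deviations from the mean of a target were correlated over genes between each amplified array and the cDNA array of the same number. These correlations lay between -0.19 and 0.12. In no target was every array closest to its own number in cDNA, although SM37 arrays 2 and 3 were. A pairing of amplified with cDNA arrays by number was thus not shown, and pairs within a target were not examined this way. The members' spread between replicas, as a scaled median absolute deviation, was 0.138 in cDNA, 0.479 in IVTIII, 0.655 in SM37 and 0.336 in SMART. All genes had 0.196, 0.322, 0.602 and 0.253 in the same order. By this measure members spread more than all genes in IVTIII and SM37, while by 2 SD they spread less. Members had 0.189 in SMART at 100 pg, 0.297 in GA at 1 ng and 1.01 in GA at 10 pg, and all genes 0.293, 0.319 and 0.743. In OV against itself members had 0.194 in cDNA, 0.180 in IVTIII and 0.253 in GA. As a mean of single arrays the members' spread was 0.605 in IVTIII, 0.719 in SM37, 0.414 in SMART, 0.234, 0.426 and 0.955 in SMART at 1 ng, 100 pg and 10 pg, and 0.834 in GA at 100 pg. In GA at 10 ng it was 0.856, above SM37, while the mean of both arrays was below it. The cause of these changes was not tested. Signal over background is unknown, and 4 arrays a group limit the precision.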
